A study of Mus musculus with 12 samples.

Results

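The genes described here form a continuous stretch of mouse chromosome 13, from Gdi2 to Stard3nl in the gene order of the GRCm38 assembly. They were picked out because many of them read low in the erythroid cell line that carries the hairpin sh 14. Each gene was represented by its brightest probe set (a group of short array probes for a transcript), and only probe sets that named 1 gene were used. Of the 64 genes of the stretch with such a probe set, 4 were left out by the rule that set the list (Klf6, Pfkp, Idi1 and Heatr1). Another 23 had a mean log2 signal over the 12 arrays under a minimum that lay between 1.427 and 1.451, the means of the nearest genes on either side, and 37 were kept, 34 of them protein coding. The 37 are compared with all 12673 genes that passed the same signal limit, 444 of them on chromosome 13. The stretch was chosen by the low log2 signal of sh 14 relative to the other lines, so the differences between sh 14 and the other lines are given as a description, without a test. No tested gene precedes Gdi2 on the chromosome, so the stretch begins at the chromosome's first tested gene.

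The cells were I/11, a mouse pro-erythroblast line kept in medium with erythropoietin, stem cell factor and dexamethasone. Lentiviral pLKO vectors with a puromycin resistance gene had been used to make 3 stable lines. The scr line carried a scrambled control hairpin, and the sh 14 and sh 133 lines each carried a hairpin against Plcg1, the gene of phospholipase C gamma 1. RNA from each line at 1, 6, 12 and 22 h was amplified and measured on Affymetrix Mouse Genome 430 2.0 arrays, with 1 array per line and time. What the hours were counted from, whether a line was a clone or a pool of infected cells, and whether the times came from separate cultures are not given in the labels. The 4 arrays of a line therefore differ in time, and p-values measure the spread between these arrays, which may be technical. The array titles carry 2 dates, treated here as 2 runs because the labels do not say what they record. The sh 14 arrays and sh 133 at 6 and 12 h made up run 1, the scr arrays and sh 133 at 1 and 22 h run 2. No run holds both sh 14 and scr, so their matched differences include any difference between runs, and a run term can be estimated only through sh 133, which spans both. sh 14 and sh 133 share a run at 6 and 12 h.

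Neighbouring genes are mostly transcribed from promoters of their own and often encode proteins of unrelated function, and this stretch is of that kind. It holds a regulator of Rab proteins, mitochondrial and ribosomal genes, chromatin regulators, a proteasome subunit and enzymes of several pathways. Array signal reports the amount of RNA. Gene copy number and chromatin were not measured. In bulk RNA, fewer cells of a type and less RNA per cell cannot be told apart.

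The array medians of the deposited log2 values ran from 1.84 to 1.92, and the correlation between arrays over all probe sets from 0.983 to 0.997. Of 14 erythroid marker genes 12 were measured, and 11 of them lay above the array median on all 12 arrays, with Hba-a1 near background. The summed linear signal of that list was 3552 to 6574 in scr, 3024 to 5190 in sh 14 and 3435 to 5688 in sh 133. Within it, mean log2 signals in scr, sh 14 and sh 133 were 5.43, 4.36 and 6.47 for Alas2 and 7.16, 6.65 and 7.66 for Slc4a1. The list did not move as one in sh 133. There Klf1, Epor, Tal1, Gfi1b, Tfrc and Ermap had lower means than in scr. Gata1, Nfe2, Rhag and Hba-a1 had slightly higher ones. In sh 14 all but Nfe2 and Hba-a1 had lower means than in scr. The 4 progenitor markers summed to 414.7 to 904.7, 589.2 to 769.3 and 514.7 to 1079.2 in the same order, with Cd34 near background. Among them Gata2 had means of 5.01, 6.25 and 5.40 and Kit 6.95, 6.45 and 6.69. The 4 megakaryocyte markers summed to 60.3 to 107.4 in scr, 191.2 to 273.7 in sh 14 and 110.9 to 280.4 in sh 133, with Vwf near background. Mean log2 signals in scr, sh 14 and sh 133 were 5.76, 7.48 and 6.08 for Itga2b and 4.06, 5.12 and 6.86 for Pf4. The 6 mast cell and basophil markers summed to 85.3 to 733 in scr, 119.0 to 376.7 in sh 14 and 58.2 to 491.0 in sh 133, with Mcpt8 near background. That sum is carried by Hdc, with mean log2 signals of 7.91, 7.21 and 6.83 in scr, sh 14 and sh 133. Apart from Mcpt8, the other markers of that list had higher means in sh 14, in the same order 1.20, 4.13 and 1.08 for Fcer1a, 1.97, 2.96 and 1.28 for Ms4a2, 1.91, 2.93 and 2.06 for Cpa3, and 3.52, 4.78 and 3.56 for Mitf. Of the 4 macrophage markers 2 were near background and of the 3 fibroblast markers all 3, whose sums stayed between 7.3 and 8.9. The part of these cell type differences in the results was not tested. Plcg1 itself, on chromosome 2, read 4.74, 4.45, 4.61 and 4.31 on scr at 1, 6, 12 and 22 h, 4.16, 3.86, 4.27 and 4.30 on sh 14 and 4.53, 4.35, 4.37 and 4.39 on sh 133. The sh 14 arrays all lay below the scr arrays for Plcg1, while the sh 133 arrays overlapped them.

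RefSeq promoter windows on GRCm38.p6, each running from 250 bases before to 50 bases after an annotated start, were found for 31 of the 37 genes, in 38 windows. A median of 19 CG dinucleotides was counted per window, against 7 over all 32851 windows of the same length. On either strand, AGATAA was found in 13.2% of the 38 windows and 11.2% of all windows, and TGATAA, the other common form of a GATA factor site, in 7.9% and 9.1%. CCACACCC, a site type of erythroid Kruppel-like factors, was found in 5.3% and 3.6%, and TTCNNNGAA, the STAT type, in 7.9% and 8.3%. CCAAT was found in 50% and 37.4%, and TATAAA in 7.9% and 13.6%. These matches are descriptions of the letters and not binding sites. The 32851 windows were not limited to genes past the signal limit, as the 38 were, and the part of that limit was not tested. The windows of Ggps1 and Arid4b run head to head on opposite strands and share 205 bases, and those of Mrpl32 and Psma2 share 296 bases. The 4 windows printed here were chosen because the results turn on their genes. Psma2 has a shared window and an even drop in sh 14, and Arid4b also has a shared window and fell over time. Dip2c was lowest in sh 14 and highest in sh 133, and the slope of Lgals8 over time differed between sh 14 and scr. Capitals mark matches to the 6 motifs on either strand, no match overlaps another, and Dip2c has none. The windows are chr13:14612992-14613291 (plus strand) for Psma2, chr13:14063534-14063833 (plus) for Arid4b, chr13:9276275-9276574 (plus) for Dip2c and chr13:12461689-12461988 (minus) for Lgals8.
Psma2: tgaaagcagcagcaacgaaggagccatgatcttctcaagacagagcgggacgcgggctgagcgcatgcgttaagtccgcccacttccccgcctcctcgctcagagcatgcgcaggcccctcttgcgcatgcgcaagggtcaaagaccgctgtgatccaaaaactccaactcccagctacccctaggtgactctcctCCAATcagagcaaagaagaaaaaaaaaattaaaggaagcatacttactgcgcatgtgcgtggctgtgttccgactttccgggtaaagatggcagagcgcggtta
Arid4b: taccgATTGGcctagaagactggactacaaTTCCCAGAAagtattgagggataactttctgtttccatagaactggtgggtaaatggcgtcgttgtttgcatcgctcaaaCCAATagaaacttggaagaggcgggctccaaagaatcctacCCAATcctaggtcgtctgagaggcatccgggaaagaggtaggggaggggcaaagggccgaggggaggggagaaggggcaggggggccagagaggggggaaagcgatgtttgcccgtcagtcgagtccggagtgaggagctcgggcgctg
Dip2c: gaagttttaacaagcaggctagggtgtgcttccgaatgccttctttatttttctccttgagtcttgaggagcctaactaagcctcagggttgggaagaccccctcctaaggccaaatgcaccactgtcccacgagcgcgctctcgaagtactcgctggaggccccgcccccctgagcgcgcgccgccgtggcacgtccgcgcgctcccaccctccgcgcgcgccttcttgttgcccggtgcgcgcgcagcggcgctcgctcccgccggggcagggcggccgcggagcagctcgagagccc
Lgals8: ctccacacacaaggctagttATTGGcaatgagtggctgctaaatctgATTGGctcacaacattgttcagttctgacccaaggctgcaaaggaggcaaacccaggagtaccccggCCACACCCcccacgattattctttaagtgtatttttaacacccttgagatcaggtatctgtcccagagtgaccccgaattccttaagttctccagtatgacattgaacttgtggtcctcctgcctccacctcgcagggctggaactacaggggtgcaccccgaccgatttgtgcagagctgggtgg

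In sh 14, 30 of the 37 genes read lower than in scr on the mean of the 4 matched times, with a median difference of -0.48 on the log2 scale. Quartiles were -0.83 and -0.09, and single genes ran from -1.68 (Asb13) to 0.91 (Akr1e1). Over all 12673 genes the median was 0.02 and 45.3% were below 0. The 4 times gave like values, with medians of -0.51, -0.57, -0.43 and -0.41 at 1, 6, 12 and 22 h and 31, 29, 29 and 30 genes below 0. Against sh 133 the medians were -0.67, -0.70, -0.60 and -0.50 at the 4 times, and -0.66 on their mean, where 34 of 37 were below 0. Within run 1 alone, at 6 and 12 h, that median was -0.64. Fitted with a term for run, an alternative added after the data were seen, the medians were -0.55 for sh 14 minus scr and -0.66 for sh 14 minus sh 133. In sh 133 minus scr the median was 0.09, with 10 of 37 below 0, and over all genes it was 0.02. The comparisons of sh 14 with scr and with sh 133 share the sh 14 arrays, and those of the hairpin lines with scr share the scr arrays.

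**Figure D1:**
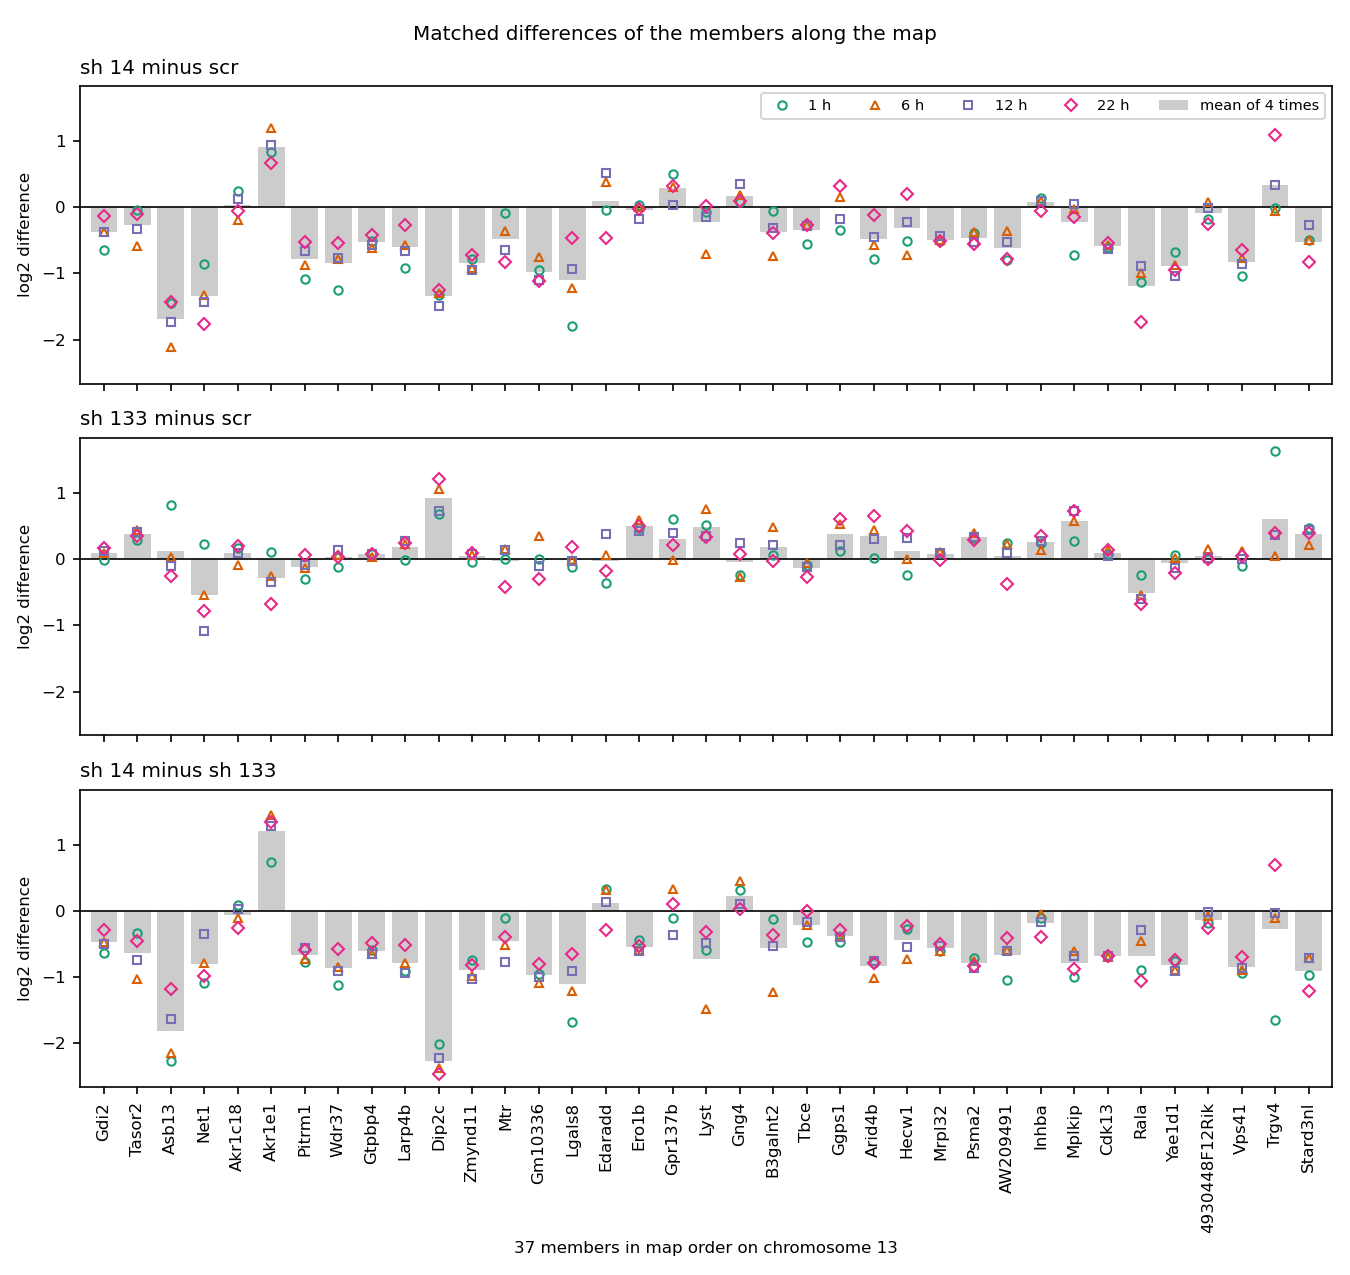
Matched log2 differences of the 37 genes in map order for sh 14 minus scr, sh 133 minus scr and sh 14 minus sh 133, with 1 symbol per time (1, 6, 12 and 22 h) and a grey bar for the mean of the 4 times. In the top panel 30 of 37 bars are below 0, in the bottom panel 34, and in the middle panel 10.

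At all 4 times sh 14 lay below scr for 24 of the 37 genes, against 18.2% of all genes tested. For 20 of the 37 all 4 sh 14 arrays were below all 4 scr arrays (8.42% of all genes), and for 19 they were below all 8 other arrays (4.77%). Against sh 133, 30 of 37 were lower at all 4 times (21.7%), and for 26 the arrays did not overlap (10.7%). These contrasts chose the stretch, and nothing is read from the counts. The drop was graded among the genes. Against scr, 5 genes lay under -1, 11 between -1 and -0.5, 14 between -0.5 and 0, and 7 at or above 0. Among the 30 genes with an scr mean of 3 or more, 27 were below 0, with a median of -0.50.

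Along the map the lowest median was at the start. Genes 1 to 12, Gdi2 to Zmynd11, had a median of -0.69 against scr with 10 of 12 below 0. Genes 13 to 24, Mtr to Arid4b, had a median of -0.29 with 9 of 12 below 0. Genes 25 to 37, Hecw1 to Stard3nl, had a median of -0.49 with 11 of 13 below 0. Against sh 133 the same 3 sections had medians of -0.73, -0.49 and -0.67. The genes left out by the rule are not in these medians. Against scr they were at 0.62 (Klf6), -0.36 (Pfkp) and -1.17 (Idi1) in the first section and -0.85 (Heatr1) in the next.

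The genes are described by role, in groups made after the values were seen. Nothing is read from the counts per group, beside 18.2% of all genes below scr at all 4 times. Whether the drop follows role was not tested. Membrane traffic genes were 6, of which 4 were below scr at all 4 times, with a group median of -0.45. Gdi2, the first gene of the stretch, encodes a Rab GDP dissociation inhibitor that draws Rab proteins off membranes. Its log2 signal at 1, 6, 12 and 22 h was 9.75, 9.44, 9.45 and 9.41 in scr, 9.11, 9.07, 9.07 and 9.28 in sh 14 and 9.74, 9.53, 9.57 and 9.57 in sh 133. All sh 14 arrays were below the others, and the mean difference from scr was -0.38 ± 0.21 (SD over the 4 times). Vps41, a subunit of the HOPS complex that tethers late endosomes and lysosomes, showed a wider gap. The 4 scr arrays, in order of time, gave 6.27, 6.16, 6.26 and 6.15, the sh 14 arrays 5.23, 5.39, 5.40 and 5.50 and the sh 133 arrays 6.17, 6.27, 6.27 and 6.20. The sh 14 values did not overlap either line and averaged 56.4% of scr as linear signal. Rala encodes a Ras-like GTPase that acts through the exocyst. From 1 to 22 h the values were 5.00, 5.09, 5.16 and 5.03 in scr, 3.86, 4.10, 4.27 and 3.29 in sh 14 and 4.76, 4.55, 4.56 and 4.35 in sh 133. Here sh 133 lay between the other lines, with no overlap, and the means were -1.19 ± 0.38 for sh 14 minus scr and -0.52 ± 0.19 for sh 133 minus scr. Stard3nl, the last gene, encodes a protein of late endosomes at their contacts with the endoplasmic reticulum. Stard3nl gave 5.22, 5.46, 5.37 and 5.35 in scr over the 4 times, 4.72, 4.97, 5.10 and 4.53 in sh 14 and 5.69, 5.68, 5.80 and 5.74 in sh 133. The 3 lines did not overlap and stood in the order sh 14, scr and sh 133 from low to high. Lyst, the lysosomal trafficking regulator mutated in beige mice, was at 2.45 to 2.63 in scr, 1.88 to 2.54 in sh 14 and 2.86 to 3.35 in sh 133. Its low sh 14 values overlapped scr and not sh 133.

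**Figure D2:**
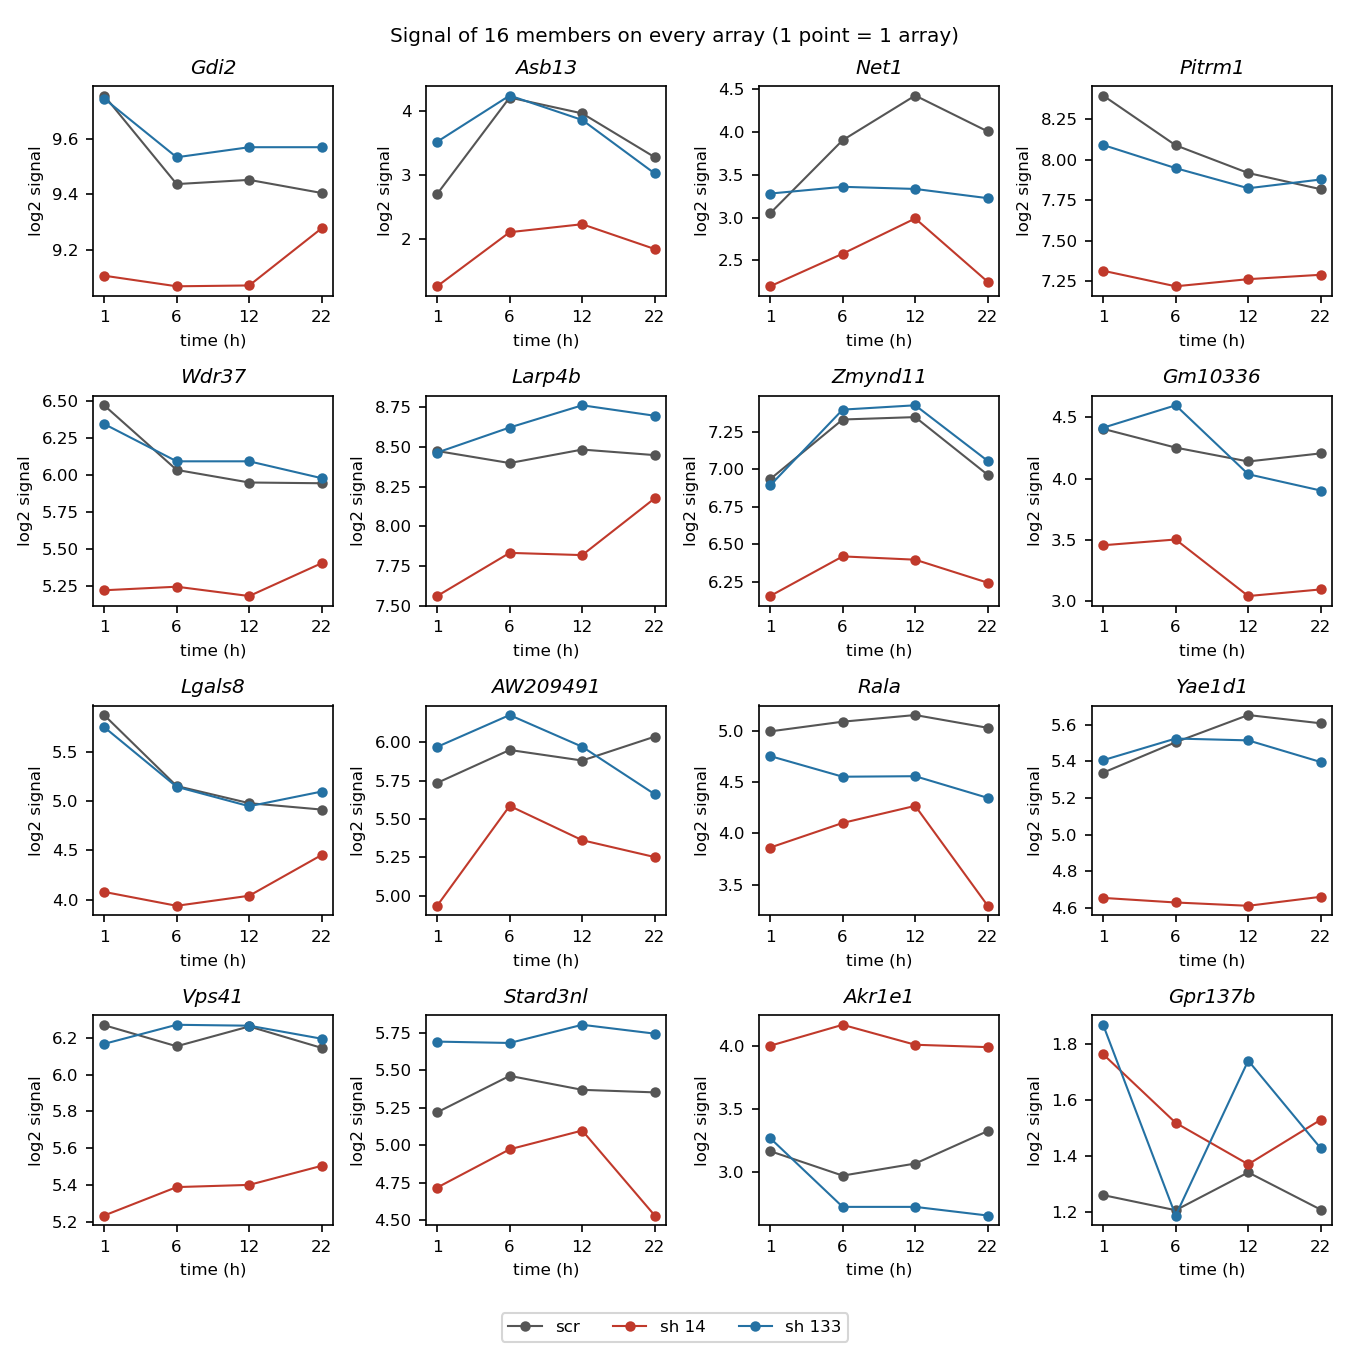
Log2 signal of 16 genes of the stretch on each of the 12 arrays (y axis, own scale per gene) against time in hours (x axis, evenly spaced), with grey for scr, red for sh 14 and blue for sh 133. The sh 14 points are lowest throughout for the first 14 genes, from Gdi2 to Stard3nl, and highest for Akr1e1.

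Ribosome and translation genes were 4, and all 4 were below scr at every time, with a median of -0.57. Larp4b, a La-related protein that binds messenger RNA and supports its translation, was low in sh 14 at each time. On scr it read 8.47, 8.40, 8.48 and 8.45 at 1, 6, 12 and 22 h, on sh 14 7.56, 7.83, 7.82 and 8.18 and on sh 133 8.46, 8.62, 8.76 and 8.70. The gap to scr was smallest at 22 h, and no sh 14 array reached either other line. Yae1d1 takes part in inserting iron-sulphur clusters into a ribosome recycling factor. Its log2 signal at 1, 6, 12 and 22 h was 5.34, 5.50, 5.65 and 5.61 in scr, 4.66, 4.63, 4.61 and 4.66 in sh 14 and 5.41, 5.52, 5.51 and 5.40 in sh 133. The 4 sh 14 values differed from each other by less than those of the other lines, and the mean was 54.2% of scr. Gtpbp4, a nucleolar GTPase of large ribosomal subunit assembly, was at 7.97 to 8.12 in scr, 7.44 to 7.61 in sh 14 and 8.05 to 8.21 in sh 133. Mrpl32, a protein of the mitochondrial ribosome, was at 8.48 to 8.61, 7.98 to 8.10 and 8.59 to 8.69 in the same order. Neither gene overlapped between sh 14 and the other lines, and the mean differences from scr were -0.53 ± 0.09 and -0.49 ± 0.04.

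Chromatin and transcription genes were 4, and all 4 were below scr at every time, with a median of -0.53. Zmynd11 encodes a reader of methylated histones in transcribed genes. The 4 scr arrays, in order of time, gave 6.93, 7.33, 7.35 and 6.96, the sh 14 arrays 6.15, 6.42, 6.40 and 6.24 and the sh 133 arrays 6.89, 7.40, 7.43 and 7.06. All sh 14 arrays were below the other 8, with a mean difference from scr of -0.84 ± 0.11. Arid4b is a subunit of the Sin3 histone deacetylase complex. From 1 to 22 h the values were 5.80, 5.38, 5.35 and 4.79 in scr, 5.02, 4.81, 4.90 and 4.67 in sh 14 and 5.81, 5.82, 5.66 and 5.45 in sh 133. The sh 14 and scr arrays overlapped here through the low scr array at 22 h, while all sh 133 arrays were above all sh 14 arrays. Cdk13, a kinase of the tail of RNA polymerase II, was at 4.27 to 4.54 in scr, 3.73 to 3.91 in sh 14 and 4.41 to 4.58 in sh 133, with a mean difference from scr of -0.58 ± 0.04. Tasor2, a relative of the HUSH complex subunit TASOR, was at 5.59 to 6.01, 5.42 to 5.78 and 5.94 to 6.45. Its sh 14 arrays overlapped scr and lay below all sh 133 arrays. Tasor2 and Gdi2 overlap in part on the map, so a probe set may read the neighbour's RNA.

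Protein folding and turnover genes were 6, of which 4 were below scr at all 4 times, with a median of -0.40. Asb13 encodes a substrate receptor of cullin ubiquitin ligases. Asb13 gave 2.71, 4.22, 3.97 and 3.28 in scr over the 4 times, 1.26, 2.11, 2.23 and 1.84 in sh 14 and 3.52, 4.25, 3.87 and 3.03 in sh 133. All sh 14 arrays lay below the other 8, and at 1 h and 22 h the sh 14 value was under its array's median, near background, so the size of its difference is uncertain. Pitrm1 encodes a mitochondrial protease that clears targeting peptides. On scr it read 8.40, 8.09, 7.92 and 7.82 at 1, 6, 12 and 22 h, on sh 14 7.32, 7.22, 7.26 and 7.29 and on sh 133 8.09, 7.95, 7.83 and 7.88. While scr was highest at 1 h, the sh 14 arrays stayed between 7.22 and 7.32. Psma2, an alpha subunit of the proteasome core, was at 9.81 to 9.99 in scr, 9.43 to 9.49 in sh 14 and 10.20 to 10.30 in sh 133. The 3 lines did not overlap, with sh 14 lowest and sh 133 highest. Tbce, a chaperone of tubulin folding, had a mean difference of -0.34 ± 0.14 in sh 14 minus scr, and its arrays overlapped. Ero1b, an oxidase that forms disulphide bonds in the endoplasmic reticulum, differed by -0.04 ± 0.10, and Hecw1, a HECT ubiquitin ligase, by -0.31 ± 0.40. The arrays of the last 2 overlapped between sh 14 and scr.

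Among 6 signalling and surface genes 2 were below scr at all times, and the group median was 0.09. Net1 is a guanine nucleotide exchange factor. Its log2 signal at 1, 6, 12 and 22 h was 3.05, 3.90, 4.43 and 4.01 in scr, 2.20, 2.58, 2.99 and 2.25 in sh 14 and 3.28, 3.36, 3.33 and 3.23 in sh 133. The sh 14 arrays were lowest, and sh 133 was below scr from 6 h on. Lgals8 encodes a galectin that binds sugars exposed on damaged endosomes. The 4 scr arrays, in order of time, gave 5.87, 5.15, 4.98 and 4.91, the sh 14 arrays 4.08, 3.94, 4.04 and 4.45 and the sh 133 arrays 5.75, 5.15, 4.95 and 5.10. Its gap to scr was largest at 1 h and smallest at 22 h. Trgv4, a variable segment of the T cell receptor gamma locus, has similar copies nearby, and which of them its probe set reads is uncertain. From 1 to 22 h the values were 5.36, 6.81, 7.02 and 7.36 in scr, 5.34, 6.76, 7.36 and 8.45 in sh 14 and 6.98, 6.86, 7.38 and 7.75 in sh 133. The lines were close at 6 h, and the sh 14 array was highest at 22 h. Gng4, a G protein gamma subunit, was at 2.99 to 3.21 in scr and 3.26 to 3.36 in sh 14, higher at all 4 times, with 2.90 to 3.28 in sh 133. Edaradd, an adaptor of the ectodysplasin receptor, was at 1.94 to 2.66, 2.13 to 2.69 and 2.30 to 2.42, and its arrays overlapped in all lines. Inhba, the activin beta A subunit, was at 1.74 to 1.90, 1.73 to 2.00 and 2.01 to 2.13, and its mean over the 12 arrays was under the highest array median.

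Of 5 metabolic enzymes 2 were below scr at all 4 times, and the median was -0.01. Akr1e1, an aldo-keto reductase, had the highest value of the stretch. Akr1e1 gave 3.16, 2.97, 3.07 and 3.32 in scr over the 4 times, 4.00, 4.17, 4.01 and 3.99 in sh 14 and 3.27, 2.72, 2.72 and 2.65 in sh 133. All sh 14 arrays were above the other 8, with a mean of 188% of scr. Above scr at all 4 times were 3 genes of 37, Akr1e1, Gpr137b and Gng4 (20.0% of all genes), each without overlap (9.24%). Against sh 133, only Akr1e1 was higher without overlap (9.21%), and Akr1e1 and Gng4 were higher at all 4 times (20.0%). Ggps1 encodes the synthase of geranylgeranyl diphosphate, the lipid attached to Rab proteins. On scr it read 3.98, 3.35, 3.65 and 3.03 at 1, 6, 12 and 22 h, on sh 14 3.63, 3.50, 3.48 and 3.36 and on sh 133 4.10, 3.89, 3.86 and 3.64. The sh 14 arrays crossed the scr arrays and lay below all sh 133 arrays. Mtr, methionine synthase, was at 4.46 to 4.65 in scr, 3.82 to 4.37 in sh 14 and 4.22 to 4.69 in sh 133. Its sh 14 arrays lay below all scr arrays and overlapped sh 133. B3galnt2, a glycosyltransferase that acts on dystroglycan, was at 5.87 to 6.44, 5.49 to 5.96 and 5.84 to 6.93, lower in sh 14 at every matched time. Its gene overlaps Tbce in part, so a probe set may read the neighbour. Akr1c18, a hydroxysteroid dehydrogenase that inactivates progesterone, was at 1.93 to 2.08, 1.89 to 2.18 and 1.99 to 2.27, close to the array medians, and belongs to a family of near copies.

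The remaining 6 genes, of other or unknown roles, had a median of -0.73, and 4 were below scr at all 4 times. Wdr37 encodes a WD repeat protein. Its log2 signal at 1, 6, 12 and 22 h was 6.47, 6.04, 5.95 and 5.95 in scr, 5.22, 5.25, 5.19 and 5.41 in sh 14 and 6.35, 6.09, 6.09 and 5.98 in sh 133. All sh 14 arrays were below the other lines, and the mean was 56.1% of scr. Gm10336 is a predicted gene that lies within Mtr on the map, so its probe set may read Mtr RNA. The 4 scr arrays, in order of time, gave 4.41, 4.25, 4.14 and 4.21, the sh 14 arrays 3.46, 3.51, 3.04 and 3.10 and the sh 133 arrays 4.42, 4.60, 4.04 and 3.90. No sh 14 array reached the other lines. AW209491 is uncharacterised. From 1 to 22 h the values were 5.74, 5.95, 5.88 and 6.04 in scr, 4.93, 5.59, 5.36 and 5.25 in sh 14 and 5.97, 6.18, 5.97 and 5.66 in sh 133. The highest sh 14 value, at 6 h, remained below the lowest of the other 8 arrays. Dip2c, of the disco-interacting protein family, is described with sh 133. Mplkip, a protein whose human form is mutated in a hair disorder, was at 5.42 to 6.26 in scr, 5.46 to 5.68 in sh 14 and 6.14 to 6.55 in sh 133, and sh 14 overlapped scr. The transcript 4930448F12Rik was at 1.65 to 2.05, 1.63 to 1.87 and 1.67 to 2.06, and its mean was under the highest array median.

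The signal limit matters at the low end. Gpr137b, a lysosomal membrane protein, was the member just inside it, with a mean of 1.451 over the 12 arrays. Gpr137b gave 1.26, 1.21, 1.34 and 1.21 in scr over the 4 times, 1.76, 1.52, 1.37 and 1.53 in sh 14 and 1.87, 1.19, 1.74 and 1.43 in sh 133. Its sh 14 arrays were above scr and overlapped sh 133. Just outside were Akr1c13 with a mean of 1.427, Actn2 with 1.423 and Akr1c21 with 1.412. The 23 genes below the limit had a median of 0.01 in sh 14 minus scr and ran from -0.07 to 0.22. Akr1c13, an aldo-keto reductase of the same family, read 0.96, 1.03, 0.92 and 1.03 on scr and 1.79, 2.37, 2.60 and 1.62 on sh 133, with all 4 scr values under the array medians. Only 3 of the 37 had a mean under the highest array median, Gpr137b, 4930448F12Rik and Inhba. Without them the median sh 14 minus scr difference over the other 34 was -0.48.

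The second hairpin against Plcg1 was tested with limma, in a model with line, time and run. These are the arrays against which sh 14 was low when the stretch was chosen, and genes low in sh 14 minus sh 133 tend to be high in sh 133. The counts over the 37 genes are therefore not independent of that choice. Of 37 genes 3 rose in sh 133 against scr (2.45% of all genes tested were called higher and 2.45% lower, 4.91% in all), and 0 fell. At an unadjusted p under 0.05 there were 9 genes higher and 0 lower. Dip2c, a member of a family whose cellular role is little known, rose most. On scr it read 2.49, 2.68, 2.82 and 2.89 at 1, 6, 12 and 22 h, on sh 14 1.16, 1.38, 1.32 and 1.64 and on sh 133 3.17, 3.75, 3.54 and 4.10. The 3 lines did not overlap, with sh 14 lowest and sh 133 highest. The fitted difference was 0.92 ± 0.136 (SE, 95% interval 0.617 to 1.22, limma adjusted p = 0.00455). All 4 sh 14 values of Dip2c were under the array medians, near background. Ero1b had the next smallest p. Its log2 signal at 1, 6, 12 and 22 h was 3.88, 3.82, 3.79 and 3.74 in scr, 3.91, 3.83, 3.61 and 3.72 in sh 14 and 4.35, 4.42, 4.21 and 4.24 in sh 133. The sh 133 arrays were all above the others, while sh 14 and scr overlapped. Its fitted difference was 0.46 ± 0.0996 (SE, limma adjusted p = 0.0269). Stard3nl, with the values given above, rose by 0.50 ± 0.125 (SE, limma adjusted p = 0.0487). Mplkip, at 0.61, did not pass (limma adjusted p = 0.0585).

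The Dip2c call was lost without the sh 133 array at 22 h, where the value was 0.68 (limma adjusted p = 0.0912). The Dip2c call was kept within run 2 as the single call there. That run holds sh 133 only at 1 and 22 h, so its fit had fewer residual degrees of freedom than the main one. Little can be read from calls kept or lost there. The calls of Ero1b and Stard3nl were lost without 8 and 10 of the 12 arrays in turn, and their values stayed between 0.44 and 0.49 and between 0.46 and 0.61. With the mean over all probe sets of a gene, Ero1b was at 0.22 (limma adjusted p = 0.183). That mean takes in probe sets under the signal limit, and Ero1b had no further probe set past it. The count of 3 became 1 without the sh 14 array at 6 h, the scr array at 6 h or any of the 4 sh 133 arrays, and 8 without the run term. Over the 37 genes the fitted median was 0.05, against 0.01 over all genes. Without a test, sh 133 was above scr at all 4 times for 14 genes (18.3% of all genes), with no overlap for 6 of them, Dip2c, Ero1b, Lyst, Psma2, Inhba and Stard3nl (6.3%). It was below at all 4 times for Tbce and Rala (15.3%), with no overlap for Rala (5.07%).

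Over time, averaged over the 3 lines, 7 of the 37 changed between 1 and 22 h, 3 higher and 4 lower (18.1% of all genes were called, 8.74% higher and 9.34% lower). Hecw1 had the smallest p. The 4 scr arrays, in order of time, gave 5.02, 6.05, 5.95 and 5.85, the sh 14 arrays 4.51, 5.33, 5.73 and 6.04 and the sh 133 arrays 4.79, 6.05, 6.27 and 6.26. Each line was lowest at 1 h. The fitted change at 22 h was 1.28 ± 0.155 (SE, limma adjusted p = 0.000417). Trgv4 rose by 1.96 ± 0.323 (SE, limma adjusted p = 0.00256), although its sh 133 array at 1 h was already high. Dip2c rose by 0.60 ± 0.119 (SE, limma adjusted p = 0.00669), as its values above show in every line. The 4 that fell were Tbce, Arid4b, Ggps1 and Gm10336. From 1 to 22 h the values were 6.51, 6.12, 6.19 and 5.94 in scr, 5.95, 5.85, 5.90 and 5.68 in sh 14 and 6.42, 6.06, 6.06 and 5.68 in sh 133. For Tbce each line was highest at 1 h and lowest at 22 h, with a fitted change of -0.52 ± 0.104 (SE, limma adjusted p = 0.00675). Arid4b fell by 0.57 on the log2 scale (limma adjusted p = 0.0132), Ggps1 by 0.56 (limma adjusted p = 0.0139) and Gm10336 by 0.36 (limma adjusted p = 0.0474). The 7 genes became 3 without the sh 133 array at 1 h or at 22 h. In those refits Dip2c, Tbce and Ggps1 gave 0.44, -0.42 and -0.61, with limma adjusted p of 0.0571, 0.0616 and 0.0515. The Ggps1 call was also lost without scr at 1 h or 22 h, where it was -0.42 (limma adjusted p = 0.0526 and 0.0543). Gm10336 lost its call without any array but scr at 6 h and 22 h, with values between -0.43 and -0.28. The calls of Hecw1, Trgv4 and Arid4b were kept without each of the 12 arrays in turn. With the mean over all probe sets of a gene, Arid4b was at -0.24 (limma adjusted p = 0.124) and Ggps1 at -0.13 (limma adjusted p = 0.525), while Trgv4 was at 1.23 (limma adjusted p = 0.00482).

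At 6 h against 1 h, 2 genes rose and 0 fell (4.86% of all genes called, 2.93% higher and 1.93% lower), and 2 others were lower at an unadjusted p under 0.05. Hecw1 rose by 0.96 ± 0.173 (SE, limma adjusted p = 0.0151) and Asb13 by 1.05 ± 0.234 (SE, limma adjusted p = 0.0336). Without scr at 6 h neither was called, with values of 0.76 and 0.91 (limma adjusted p = 0.123 and 0.215). At 12 h, 4 genes rose and 0 fell (7.06% called, 4.32% higher and 2.75% lower), with 3 others lower at an unadjusted p under 0.05. The changes were 1.13 for Hecw1, 0.91 for Net1, 1.56 for Trgv4 and 0.89 for Asb13, with limma adjusted p of 0.00472, 0.0239, 0.0294 and 0.0497. Hecw1 kept its call at 12 h without each array in turn. Net1 lost it without sh 14 at 12 h, scr at 12 h or scr at 1 h, with a lowest value of 0.60. Trgv4 lost it without 7 of the arrays, and Asb13 without 8 of them at either time, with values from 1.13 to 1.86 for Trgv4 and from 0.62 to 1.30 for Asb13. The 12 h count was 1 without sh 14 at 12 h, scr at 12 h or scr at 1 h. It was 2 without sh 133 at 6 h or 12 h or scr at 6 h. With the mean over all probe sets, Trgv4 was at 1.01 at 12 h (limma adjusted p = 0.0415). Falling genes were called at 12 h without sh 14 at 1 h, with 2 higher and 3 lower, and with arrays centred on their medians, with 3 higher and 1 lower. At 6 h the count without sh 14 at 1 h was 1 higher and 1 lower.

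**Figure D3:**
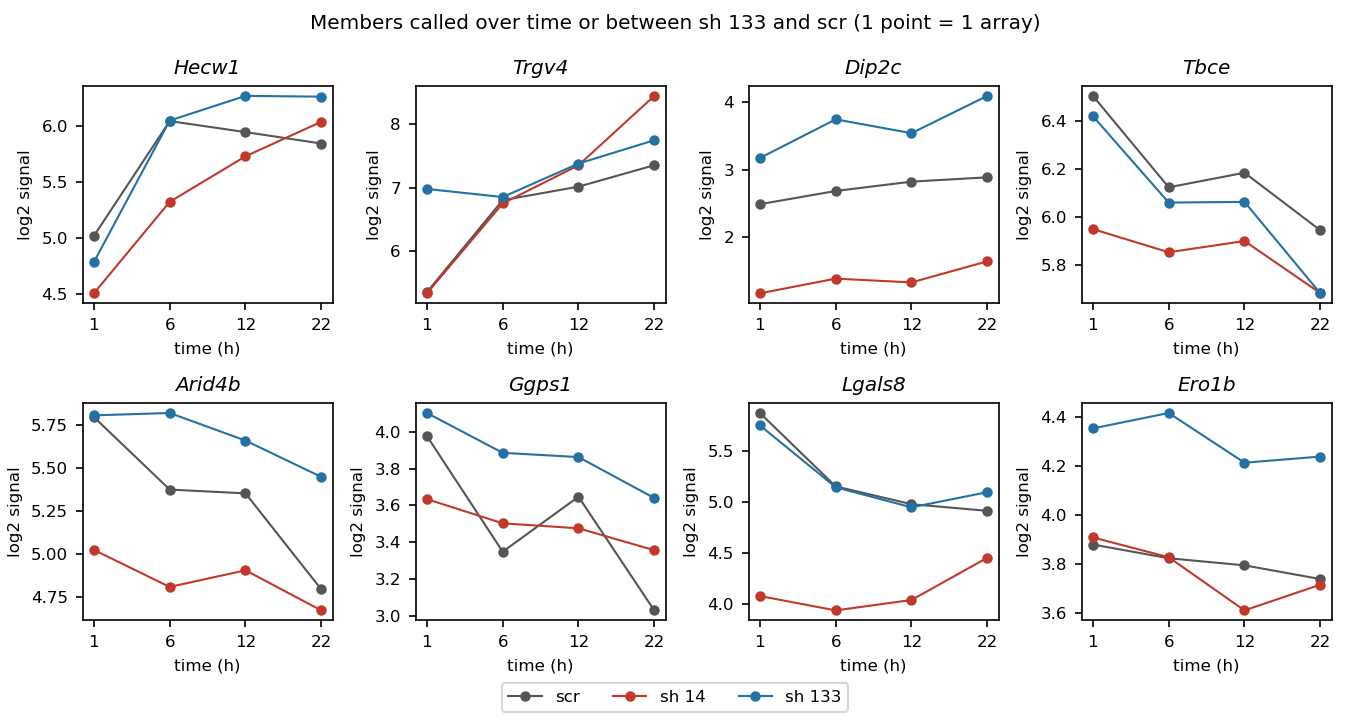
Log2 signal of 8 genes called over time, in sh 133 against scr or in the slope of sh 14, on each of the 12 arrays (y axis, own scale per gene) against time in hours (x axis, evenly spaced), with grey for scr, red for sh 14 and blue for sh 133. Hecw1 is lowest at 1 h in every line, Tbce is highest at 1 h in every line, and Lgals8 rises in sh 14 by 22 h while it falls in scr.

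The slope on log2 hours differed between sh 14 and scr for 1 gene of 37, Lgals8 (2.79% of all genes called, 2.24% higher and 0.552% lower). Its signal rose relative to scr by 0.28 ± 0.0443 per doubling of hours (SE, limma adjusted p = 0.0319). From 1 to 22 h it went from 4.08 to 4.45 in sh 14, from 5.87 to 4.91 in scr and from 5.75 to 5.10 in sh 133. These arrays are also those on which the stretch was chosen, by level and not by slope. With 3 residual degrees of freedom the call was lost without 10 of the 12 arrays in turn (all but sh 14 at 6 h and 12 h), with slopes between 0.23 and 0.40 and limma adjusted p up to 0.276. The median slope difference over the 37 was -0.001.

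Past Stard3nl the next 20 tested genes were mixed in sh 14 minus scr, but those of higher signal were mostly low. Epdr1, the next tested gene, read 7.14, 7.18, 7.12 and 7.21 on scr, 6.86, 7.09, 7.10 and 7.07 on sh 14 and 7.42, 7.59, 7.38 and 7.48 on sh 133 at 1, 6, 12 and 22 h. The sh 14 arrays were all below the scr arrays there, with a mean difference of -0.13 ± 0.11. The next 20 tested genes, Epdr1 to H1f6, had a median of -0.03 in sh 14 minus scr with 12 below 0, and of -0.32 against sh 133 with 13 below 0. Within them single genes were low, such as Btn1a1 at -1.58, Zkscan8 at -0.79, Zkscan3 at -0.76, Zfp322a at -0.59 and Trim27 at -0.47. They were named after their values were seen, and 8 of the 20 were above 0. The 20 include genes near background, such as Gpx5, Gpx6, Zkscan4 and H3c4, with mean log2 signals of 1.58, 1.82, 1.64 and 1.60. An scr mean of 3 or more was reached by Epdr1, Trim27, Zscan12, Zkscan3, Zscan26, Zkscan8, Zfp322a, Abt1 and Btn1a1. Of these only Zscan26, at 0.27, was above 0, with Zscan12 at -0.15 and Abt1 at -0.30. Where the low values end was not tested. For 6 of the 20, all sh 14 arrays were below all scr arrays (8.42% of all genes), and for 10 below all sh 133 arrays (10.7%). The 20 genes that follow, H1f2 to Exoc2, had medians of -0.06 against scr and -0.32 against sh 133. The 20 from Foxq1 to Cdyl had medians of -0.004 and -0.16. In both sets 14 of 20 were below 0 against sh 133. The 20 genes from Rpp40 to Edn1, further on, had lower medians of -0.37 against scr and -0.60 against sh 133. From Rnf144b to Iars the median was 0.41 with 1 of 20 below 0. Over the other 403 tested genes of the chromosome, 65 were below scr at all 4 times (18.2% of all genes) and 143 above (20.0%).

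**Figure D4:**
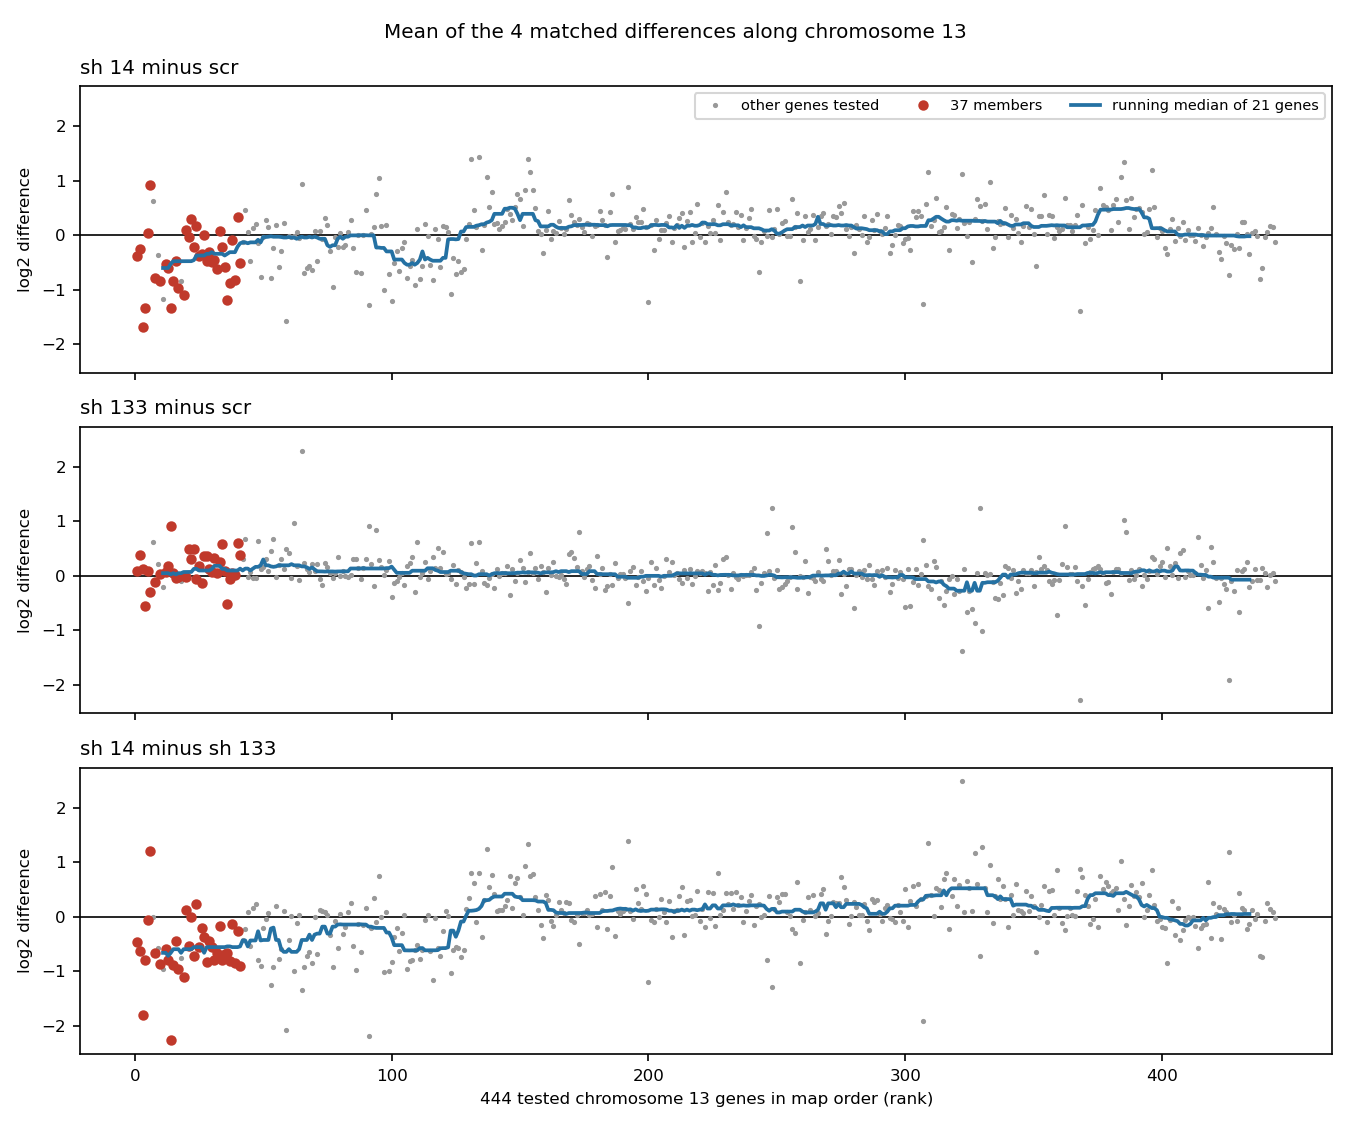
Mean of the 4 matched log2 differences (y axis) for the 444 tested genes of chromosome 13 in map order (x axis, rank), in 3 panels for sh 14 minus scr, sh 133 minus scr and sh 14 minus sh 133, with the 37 genes in red, other genes in grey and a running median of 21 genes in blue. The line starts low in the top and bottom panels. In both it falls again around the genes from Rpp40 to Edn1, where the medians are -0.37 and -0.60. In the bottom panel it stays below 0 in between. In the middle panel it runs between -0.27 and 0.30.

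Of the 37 genes 20 had further probe sets past the same signal minimum, 40 in all, which the choice of genes did not use but which read the same RNA samples. In sh 14 minus scr 39 of the 40 had the sign of the brightest probe set, and their median was -0.58. Some genes gave several of the 40. The same share over all genes was not counted, so nothing is read from the agreement. In sh 14 minus sh 133 39 of 40 were below 0, with a median of -0.58, and in sh 133 minus scr the median was 0.09. The 5 further probe sets of Gdi2 ran from -0.38 to -0.35, beside -0.38 for its brightest. For Cdk13 they disagreed, with 0.17 and -1.57 beside -0.58. For Ggps1 the 3 further probe sets were at -0.21, -0.76 and -1.01, beside -0.01.

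**Figure D5:**
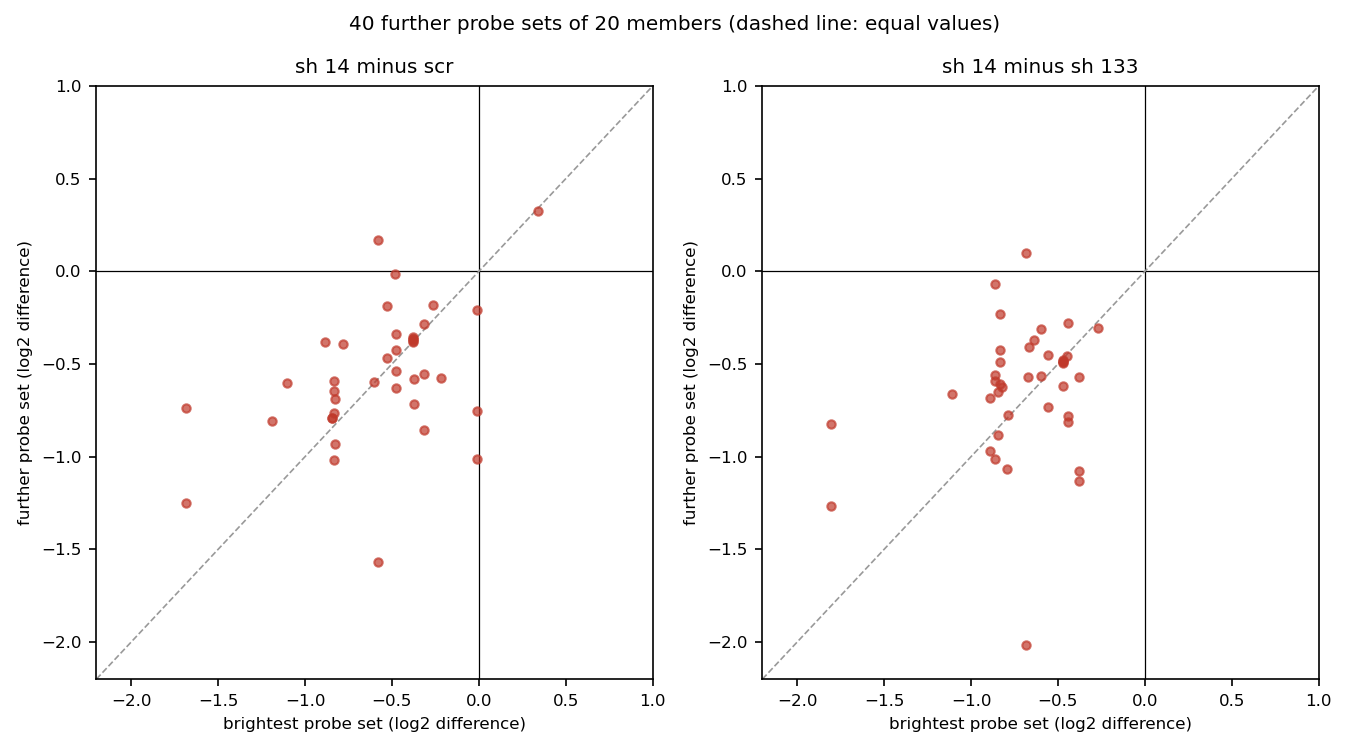
Mean matched log2 difference of each of the 40 further probe sets (y axis) against the brightest probe set of the same gene (x axis), for sh 14 minus scr on the left and sh 14 minus sh 133 on the right, with a dashed line of equal values. In the left panel 39 of 40 points share the sign of the brightest probe set. The point of opposite sign, above 0 while its brightest probe set is below, belongs to Cdk13.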

How the data were processed

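Expression was measured in 12 samples, 3 lines of I/11 cells at 4 times, grouped by the hairpin named in the labels. The authors deposited log2 values of 45101 probe sets, normalised with RMA, per the submitters' processing notes (no version given in the sources used here). RMA takes background off and sets arrays to a common distribution, which hides a shift shared by most genes and compresses differences near background. No column was left unused.

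Probe sets were named through the platform annotation (34958 named 1 gene, 932 several and 9211 none) and updated by Entrez ID through a RefSeq table of GRCm38.p6, which matched 34754. That table gave symbols and gene order only, since the files name no build. The brightest single-gene probe set stood for a gene, and 12673 of 18195 genes had a mean log2 signal at or above the minimum, which lay between 1.427 and 1.451. Matched differences were taken at each time. limma 3.58.1 in R 4.3.3 fitted line, time and run (5 residual degrees of freedom), or slopes on log2 hours (3), with Benjamini-Hochberg adjustment over all 12673 genes and a threshold of 0.05. The fits were tested on simulated data. Python 3.11.15 did the rest.

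The stretch, the gene lists and the marker lists were chosen with earlier results of these data known, and the role groups after the values were seen. Values on every array are given by a rule, for the first and last gene and the neighbour outside, the 12 lowest and 3 highest in sh 14 minus scr (the lowest among genes with an scr mean of 3 or more), and genes called in sh 133 minus scr, over 22 h or in the slope. The others are given by ranges. Number of arrays limits the precision. Alternatives were the run term, the signal limit, the mean over probe sets, array centring, variance trend, single runs and leaving out each array. For the matched differences each time was left out instead.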

Additional observations from a re-analysis of the deposited data

Results flagged for a closer look

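Among 69 groups of 4 arrays (23 genes in 3 lines), 4 had an array far from the other 3, and chance alone gives about 1 in 20. Gdi2 in scr was 9.75 at 1 h and between 9.41 and 9.45 at the other times. Akr1e1 in sh 14 was 4.17 at 6 h and between 3.99 and 4.01 otherwise, and in sh 133 it was 3.27 at 1 h and between 2.65 and 2.72 otherwise. Hecw1 in sh 133 was 4.79 at 1 h and between 6.05 and 6.27 otherwise. The arrays of a line differ in time, so an array that stands apart may do so through its time. Lgals8 had a slope on log2 hours that was higher in sh 14 than in scr by 0.28, tested by limma in the slope model.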

How the results depend on the processing

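No value changed sign under any alternative run. Without the signal limit the medians over all 60 genes of the stretch were -0.061 in sh 14 minus scr, 0.049 in sh 133 minus scr and -0.32 in sh 14 minus sh 133. The 23 genes added are near background. With the mean over probe sets the last of these was -0.51. Leaving out each matched time, and so the arrays of both lines at that time, gave medians of -0.484 to -0.438, 0.066 to 0.084 and -0.682 to -0.578 in the same order. The number of genes called in sh 133 minus scr was 8 without the run term (7 higher, 1 lower), 5 with a variance trend and 1 within run 2. In the slope of sh 14 it was 3 with the mean over probe sets and 3 with the trend. Leaving out each array gave 1 to 4 genes called in sh 133 minus scr, 0 to 3 at 6 h, 1 to 5 at 12 h, 3 to 8 at 22 h and 0 to 1 for the slope. The cause of these changes was not tested. Fitted with a run term, the median was -0.553 in sh 14 minus scr and 0.052 in sh 133 minus scr. That fit and a restriction to genes above the highest array median were tried after seeing the data. Arrays were matched by time in the differences and in the fit. No paired analysis was possible because the replicate numbers follow accession order and so pair no arrays beyond that.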
